A study of Homo sapiens with 40 samples.

Results

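The 8 genes described here encode splicing activators: the SR proteins SRSF1, SRSF2, SRSF3, SRSF5, SRSF7 and SRSF8, and the related proteins TRA2A and TRA2B. They were taken by gene name from a long-read set of transcript models, in which they account for 24 of 19972 models and 8 of 9460 genes. The models belong to a study of the established human embryonic stem cell line H9. Dual-SMAD inhibition turned the stem cells into neural progenitor cells (NPC), and the embryonic stem cells (ESC) carry the treatment label control. RNA of both cell types was split into a cytosol fraction, a monosome fraction, a heavy polyribosome fraction (at least 5 ribosomes) and a light one (2 to 4). Each of the 8 combinations has 2 long-read and 3 short-read libraries, 40 in all. The set of models carries no abundance and no value per library, so ESC and NPC, or the fractions, are not compared, the depth is unknown, and no statement is made on how much of any RNA is present or translated. For the same reason the labelled cell types could not be set against their marker genes.

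SR proteins bind short enhancer sequences in exons through an RNA recognition motif and draw the splicing machinery to nearby splice sites through a domain rich in arginine and serine. TRA2A and TRA2B are built in a similar way and bind purine-rich enhancers. As background, many SR genes are known to limit their own output through unproductive splicing: a so-called poison exon, or splicing within the 3' untranslated region (UTR), leaves a stop codon upstream of an exon junction, and such RNA can be removed by nonsense-mediated decay. The usual rule for a candidate is a distance of over 50 nt between the stop and the last junction behind it, and that rule is used below; it is a reading of the models and no measurement of decay.

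The 8 genes had between 1 model (SRSF8) and 5 models (SRSF7). SRSF5 and TRA2B had 4 each, SRSF2 and TRA2A 3 each, and SRSF1 and SRSF3 2 each. Their mean of 3 ± 1.31 models and median of 3 (SD over genes, n = 8) stand beside a mean of 2.11 ± 1.70 and a median of 2 over all 9460 genes. Every one of the 24 models had a coding region, and no coding region came within 2 nt of an end of its model. The spliced RNAs ran from 1024 nt (SRSF7 model 3) to 3149 nt (SRSF1 model 2), with a median of 1813 nt, against 1537 nt over all models. Models are numbered here within each gene in the order of their deposited identifiers.

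**Figure D1:**
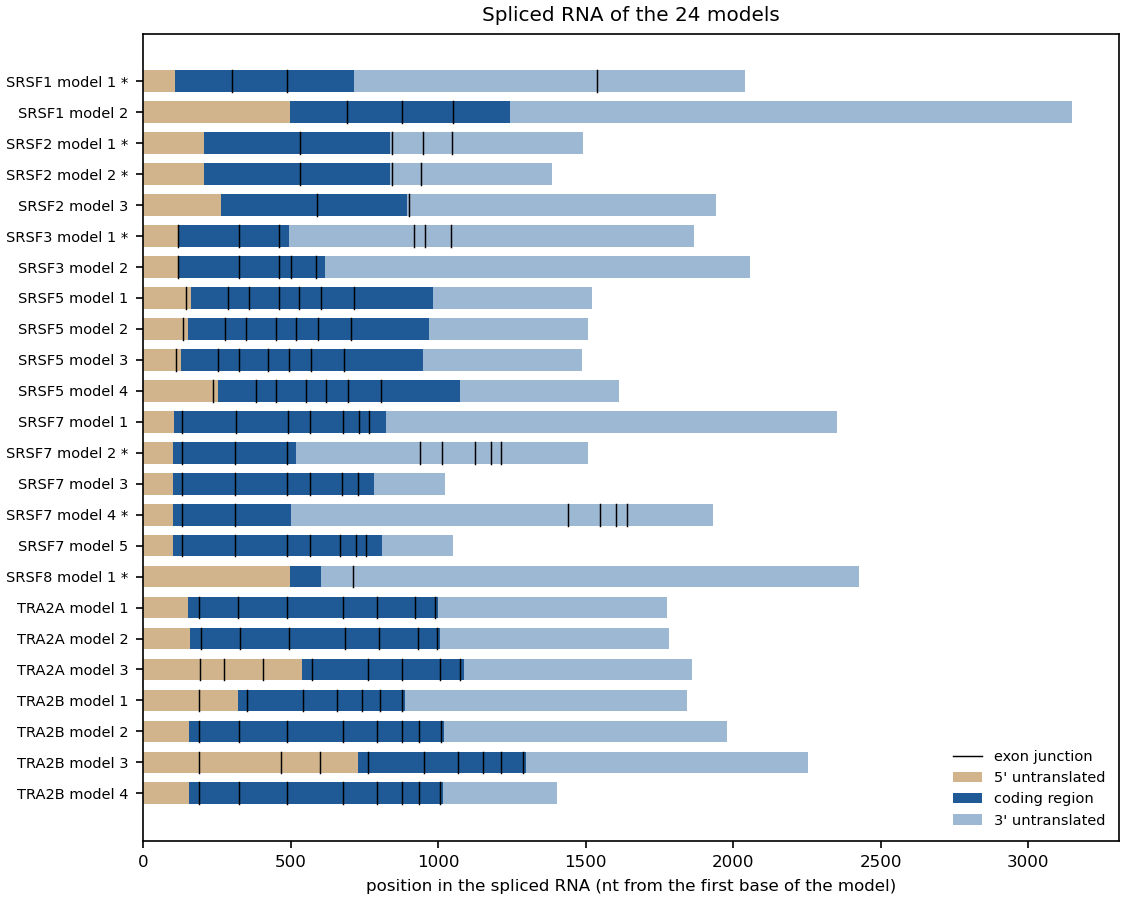
Spliced RNA of the 24 models (y axis; x axis, nt from the first base of the model), with the 5' UTR in tan, the coding region in dark blue, the 3' UTR in light blue and exon junctions as black lines; an asterisk marks a model whose last junction lies over 50 nt behind its stop. Junctions lie inside the light blue part in 8 models, those of SRSF2 and SRSF8 and 1 or 2 each of SRSF1, SRSF3 and SRSF7, and the tan part is longest in TRA2B model 3 (730 nt).

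Most 5' ends lay at or next to transcript starts given by RefSeq (table on build GRCh38.p14), which held start windows for 6 of the 8 genes. All 4 TRA2B models began exactly on the RefSeq start, both SRSF3 models began 2 nt downstream of it, and 1 SRSF7 model began on it with the other 4 lying 2 nt downstream. The 4 SRSF5 models spread over 33 nt. The 2 SRSF1 models differed most: model 1 began on the RefSeq start and model 2 began 388 nt upstream of it, which gave 5' UTRs of 109 and 497 nt before the same start codon. SRSF8 stood apart, since its only model began 597 and 555 nt downstream of the RefSeq starts. The sequences below are RefSeq windows of 30 bases around the start, from 20 bases before it, and are shown because the first bases of the models fall inside them; capitals mark the first base of a model.
SRSF1, chr17:58007237-58007266, minus strand: tgcgccgagctgataaaggcGccattttgg
SRSF3, chr6:36594342-36594371, plus strand: ggcgaggagaaggcggtggtccGccatttc
SRSF5, chr14:69767122-69767151, plus strand: GcgccagagctgctaagtgcGtcAgttgtg
SRSF7, chr2:38751352-38751381, minus strand: gcgaacccgggctcttcctcGtAgtgccgc
TRA2B, chr3:185938005-185938034, minus strand: gcgtcacatccggtagagttAgagcccgtg

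The remaining SRSF5 model began 30 nt upstream of the RefSeq start, outside the printed window.

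SRSF3 and SRSF7, which are close relatives among the SR proteins, also shared a TATA motif ahead of these starts. The motif TATAAA was searched on the strand of the gene, between 40 and 20 bases before the start, a search chosen after the sequences were seen. It was found in 789 of 35116 RefSeq windows (2.25%), a share over windows and not over genes. SRSF7 and SRSF8 had more than a single window. Of the 6 genes with windows, SRSF3 and SRSF7 had the motif. It began 30 bases before the SRSF3 start and 27 bases before the SRSF7 start that the models use. The windows of SRSF1, SRSF5, SRSF8 and TRA2B, and the other SRSF7 window, did not hold these letters there. The motif is in capitals.
SRSF3, chr6:36594320-36594349, plus strand: tccagtatggcgTATAAAtaaaggcgagga
SRSF7, chr2:38751371-38751400, minus strand: agcggccgcataTATAAAcgcgaacccggg

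In 5 of the SR genes at least 1 model had its last junction over 50 nt behind the end of the coding region. These were SRSF3 (1 of 2 models), SRSF7 (2 of 5), SRSF1 (1 of 2), SRSF2 (2 of 3) and SRSF8 (its only model), while SRSF5, TRA2A and TRA2B had none. The count is 5 of 8 genes (62.5%), against 5.01% of all 8579 genes with a coding model, and 7 of 24 models (29.2%), against 3.14% of all 17247 coding models. The gene shares are not matched for the number of models: 7 of the 8 genes had at least 2 coding models, against 4072 of the 8579. The genes were chosen with this pattern known, so no test is given. The end of the coding region lay a median of 548 nt upstream of the last junction in the 7 models, against 199 nt in all 541 candidates. The stop lay in a long poison exon in SRSF3 model 1 and SRSF7 model 2 and in a retained intron in SRSF1 model 1 and SRSF7 model 4. In SRSF2 models 1 and 2 it was the stop of every model of the gene, with splicing behind it. SRSF8 has no second model to set its stop against, and its call rests on a deposited coding region of 35 codons, described below.

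**Figure D2:**
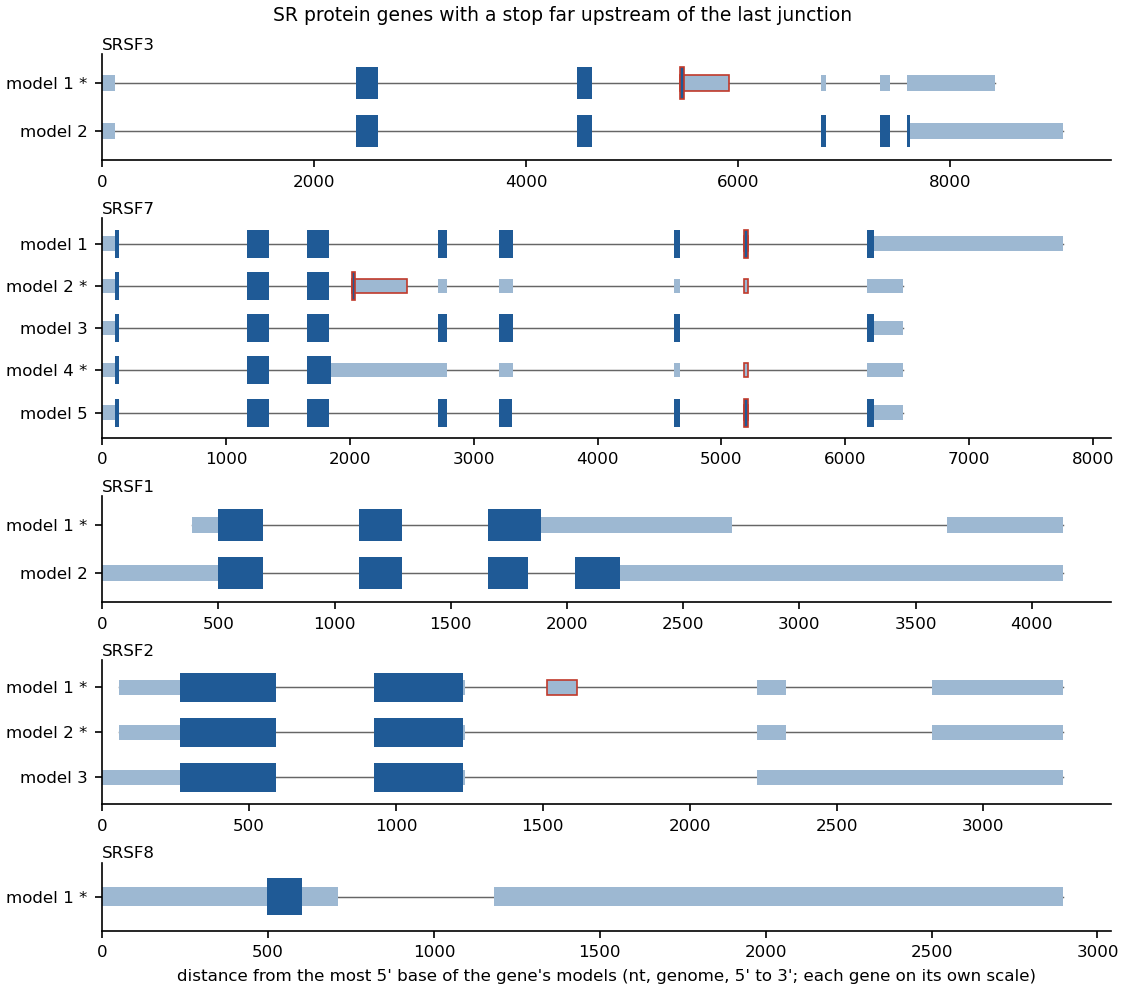
Models of SRSF3, SRSF7, SRSF1, SRSF2 and SRSF8 drawn to scale (x axis, nt along the genome from the most 5' base of each gene's models; y axis, model number), with coding regions as tall dark boxes, untranslated regions as low light boxes, introns as lines and cassette exons outlined in red. An asterisk marks the 7 models whose last junction lies over 50 nt behind the stop; in SRSF3 model 1 and SRSF7 model 2 the coding region ends just inside a long red-outlined exon.

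By the deposited coding regions, SRSF3 and SRSF7 carried the long poison exons. In SRSF3 (also known as SRp20), which regulates splicing, RNA export and 3' end choice, model 1 (deposited as TCONS_00023534) held an exon of 456 nt on chromosome 6 from 36599821 to 36600276, between introns of 837 and 875 nt, and model 2 joined the neighbouring exons directly. The coding region ended at the base 34 nt into the exon. Model 1 therefore had 125 codons, of which 113 were shared from the start with the 165 codons of model 2. The other 12 ended in the exon, the earliest of them split by the junction before it. Behind its stop lay 3 further introns of 875, 517 and 167 nt, the last of them 548 nt downstream. The length of this exon is divisible by 3, while that of the SRSF7 exon described next is not, and in both the coding region ended inside the exon. The start codon in exon 2 and the 5' UTR of 120 nt were the same in both models, and model 2 ended its coding region 28 nt into the last exon.

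In SRSF7 (also known as 9G8), an SR protein with a zinc knuckle, 2 models had coding regions of nearly the same length that ended at separate positions, 38749319 in model 2 and 38749516 in model 4. Model 2 (TCONS_00016826) held a cassette exon of 449 nt on chromosome 2 from 38748898 to 38749346, between short introns of 182 and 244 nt, and its coding region ended 28 nt into the exon. Model 4 (TCONS_00016829) retained the whole stretch of 875 nt between the same 2 constitutive exons, poison exon included, as part of 1 exon of 1127 nt, and its coding region ended 13 nt into the retained stretch. Both shared their first 128 codons with the 239 codons of model 1, then read 10 codons of their own in model 2 and 5 in model 4, for totals of 138 and 133 codons. The stop lay 697 nt upstream of the last junction in model 2, with 5 introns behind it, and 1138 nt upstream in model 4, with 4 introns behind it. The last of these distances was among the longest in the set, since 15 of the 541 candidates lay beyond 1000 nt.

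The poison exons of SRSF3 and SRSF7 were of like length and placed alike. Both followed the exon that ends the shared part of the reading frame, exon 3 in each gene, and both held the end of the coding region within their first 34 nt. By length they ranked 3 (SRSF3) and 4 (SRSF7) among the 79 cassette exons of all genes that hold the end of such a coding region, which had a median of 121 nt. Exons of at least 400 nt made up 89 of 3571 cassette exons (2.49%). With TRA2B, described below, the genes had 3 cassette exons of at least 200 nt among 7 (42.9%), against 11.7% of all cassette exons. They lay in 3 of 7 genes with at least 2 models (42.9%), against 7.64% of all such genes. The gene shares are not matched for the number of models.

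**Figure D3:**
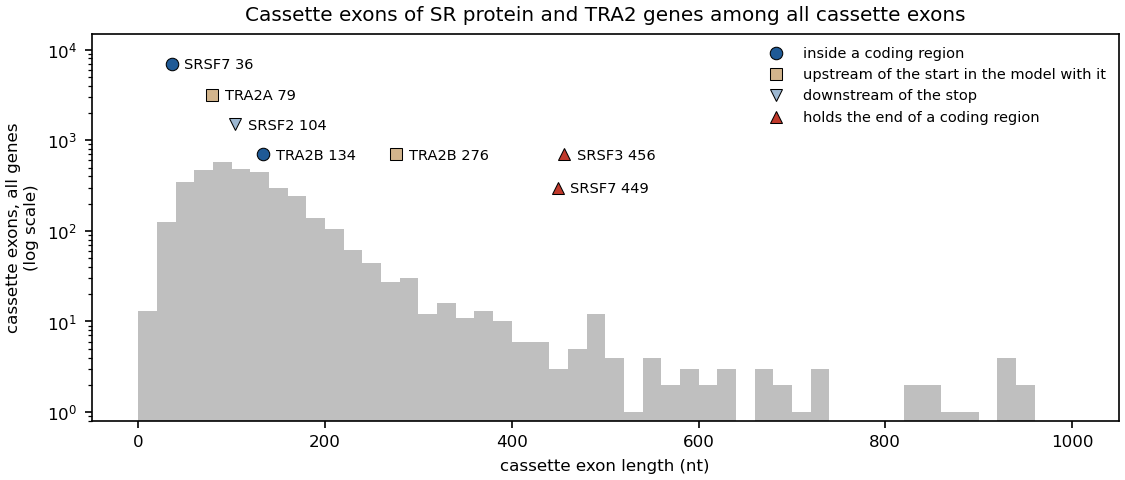
Length of the 7 cassette exons of these genes (coloured points, labelled with gene and length in nt; their height is for spacing only) over the lengths of all cassette exons shorter than 1000 nt (grey bars, log y axis, bins of 20 nt; 17 exons are longer). The SRSF3 exon of 456 nt and the SRSF7 exon of 449 nt lie far out in the grey tail, the TRA2B exon of 276 nt between them and the bulk, and the other 4 lie between 36 and 134 nt.

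SRSF1, SRSF2 and SRSF8 had the same reading by rule without a cassette exon that holds the stop. In SRSF1 (ASF/SF2), a widely studied SR protein, model 1 (TCONS_00012620) on chromosome 17 retained an intron of 200 nt, from 58005601 to 58005800, that model 2 removed, and its coding region ended 54 nt into the retained intron. Model 1 had 202 codons, of which 184 were shared with the 249 codons of model 2 and 18 came from the intron. Model 1 in turn removed an intron of 921 nt, from 58004002 to 58004922, that lay inside the last exon of model 2. That intron, 824 nt behind the stop, was the only one in its 3' UTR, so each of the 2 models retained an intron that the other removed. Both ended on the same last base, with 3' UTRs of 1325 nt in model 1 and 1905 nt in model 2.

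In SRSF2 (SC35), the 3 models had 1 coding region of 210 codons and differed only in untranslated sequence. The coding region ended 7 nt upstream of the end of exon 2 in each, and each model spliced behind it, so all 3 had at least 1 intron in the 3' UTR. Model 1 had 3 such introns (278, 613 and 498 nt), model 2 had 2 (995 and 498 nt) and model 3 had 1 (995 nt). The extra intron pair of model 1 came from a cassette exon of 104 nt, from 76735772 to 76735875 on chromosome 17, that models 2 and 3 skipped. Model 3 retained the intron of 498 nt, from 76734563 to 76735060, in a last exon of 1041 nt. The stop was thus 209, 105 and 7 nt upstream of the last junction in models 1, 2 and 3, and models 1 and 2 met the rule while model 3 did not. In the 3' UTR these choices gave 654, 550 and 1048 nt.

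An intron behind the stop was found in 8 of the 24 models (33.3%), against 7.47% of all coding models; the eighth is SRSF2 model 3. A first such intron within 10 nt of the stop, as in SRSF2, was found in 310 of the 1289 models with one (24%), and 849 of them (65.9%) had it within 50 nt. The introns in the SR genes measured between 167 nt (SRSF3) and 1299 nt (SRSF7). In SRSF3 and SRSF7 the introns behind the stop, apart from the one that borders the poison exon, are also removed within the coding region of another model. Those of SRSF1 and SRSF2 lay behind the stop in every model that removed them.

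SRSF8 (SRp46), known as an expressed retroposed copy of SRSF2, had 1 model of 2 exons on chromosome 11 from 95067474 to 95070369. The deposited coding region of 35 codons lay wholly in exon 1 and ended 108 nt upstream of the only junction, behind which an intron of 471 nt had been removed. Coding regions of at most 35 codons made up 101 of 17247 (0.586%). The 5' UTR of 497 nt and the 3' UTR of 1823 nt made up the rest of the 2425 nt. The proteins usually given for SRSF8 and for SRSF2 are longer than these deposited coding regions. The calls for SRSF8 and, less directly, the start of SRSF2 depend on the caller used by the authors. Those for SRSF8 also depend on the 5' end of its only model, which began 597 and 555 nt downstream of the RefSeq starts. Whether that model lacks 5' sequence of the usual coding region was not tested. Whether reads of the SRSF2 and SRSF8 copies were told apart was not tested.

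**Figure D4:**
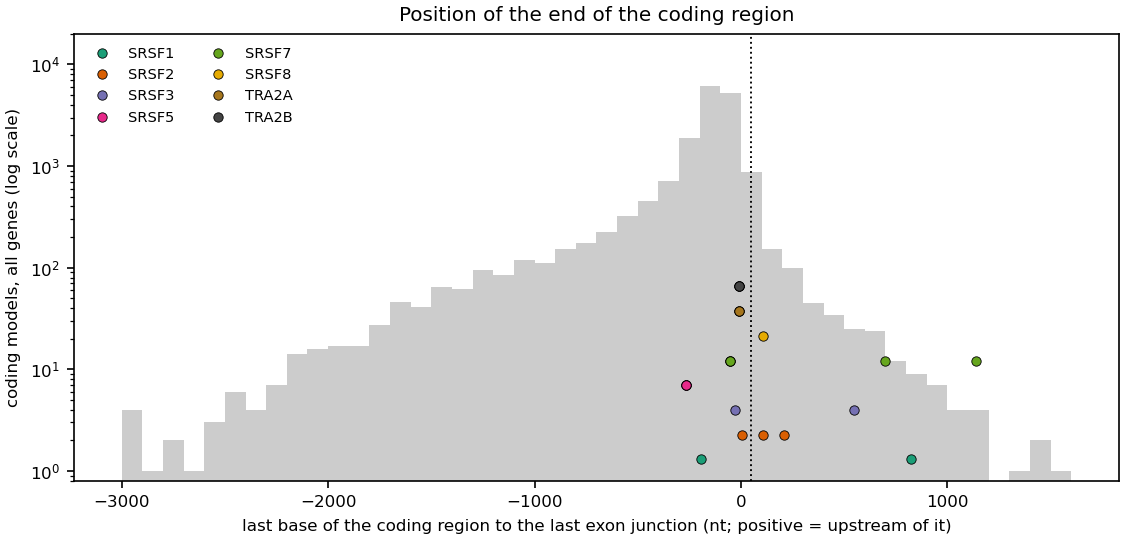
Distance from the last base of the coding region to the last exon junction (x axis, nt; positive values lie upstream of the junction) in the 24 models (coloured points, 1 height per gene for spacing only; overlapping points coincide) and in all coding models from -3000 to 1600 nt (grey bars of 100 nt, log y axis). The dotted line marks 50 nt; 7 points from 5 SR genes lie to its right, at 105 to 1138 nt, and the 7 TRA2 models coincide 11 nt inside the last exon.

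TRA2A and TRA2B had no such stop in their deposited coding regions, where their extra exons went with a moved start. In TRA2A on chromosome 7, model 3 (TCONS_00025581) held a cassette exon of 79 nt, from 23522354 to 23522432, that models 1 and 2 skipped; it followed an intron of 9356 nt and preceded one of 513 nt. The coding region of model 3 began in exon 4, at 23516395, and had 182 codons, all of them shared with the 283 codons of model 1, whose coding region began in exon 1, at 23531824. In TRA2B on chromosome 3, model 3 (TCONS_00020902) held a cassette exon of 276 nt, from 185931577 to 185931852, between introns of 5972 and 4842 nt. Its coding region began at 185925496 in exon 4 and had 189 codons, all shared with the 289 codons of model 2, which began in exon 1 at 185937860. TRA2B model 1 reached the same start and the same 189 codons in another way, by skipping the exon of 134 nt, from 185926601 to 185926734, that the other 3 models held.

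The moved start sat at the same point of the corresponding exon in both paralogues. The start exon was 166 nt long in TRA2A and 163 nt in TRA2B, and in each the first coding base was followed by 32 nt to the exon end. The moved start lay in frame with the full coding region and cost 101 codons relative to TRA2A model 1 and 100 relative to TRA2B model 2. Since the exons with the original starts were kept, the 3 models lengthened their 5' UTRs instead, to 540 nt in TRA2A model 3, 730 nt in TRA2B model 3 and 320 nt in TRA2B model 1, against 152 to 160 nt in the other TRA2A models and 154 nt in the other TRA2B models.

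The base at which the full coding region begins was still present in all 3 of these RNAs. The distance between it and the moved start was 382 nt in TRA2A model 3 and 166 nt in TRA2B model 1, neither divisible by 3, and 576 nt in TRA2B model 3, which is. The deposited coding regions do not use it, and the sequence of the exons was not available to look for stops from there. Had a coding region been given from the original start, its end and the reading by the 50 nt rule would depend on that sequence. Behind its cassette exon of 276 nt, divisible by 3, TRA2B model 3 would then be read in the frame of model 2. The coding region would end either inside that exon, which meets the rule, or at the shared stop, which does not. Which of these holds, and whether the TRA2 cassette exons act as poison exons, was not tested. Of the 7 genes with at least 2 coding models, 2 (28.6%) had at least 2 start positions, against 44.8% of all 4072 such genes, and 3 (42.9%) had at least 2 stop positions, against 41.6%. The 2 with moved starts are TRA2A and TRA2B and the 3 with moved stops are SRSF1, SRSF3 and SRSF7; SRSF2 and SRSF5 moved neither. A start moved past a cassette exon while the stop stayed in place was seen in 227 of the 4072 genes (5.57%), among them TRA2A and TRA2B.

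**Figure D5:**
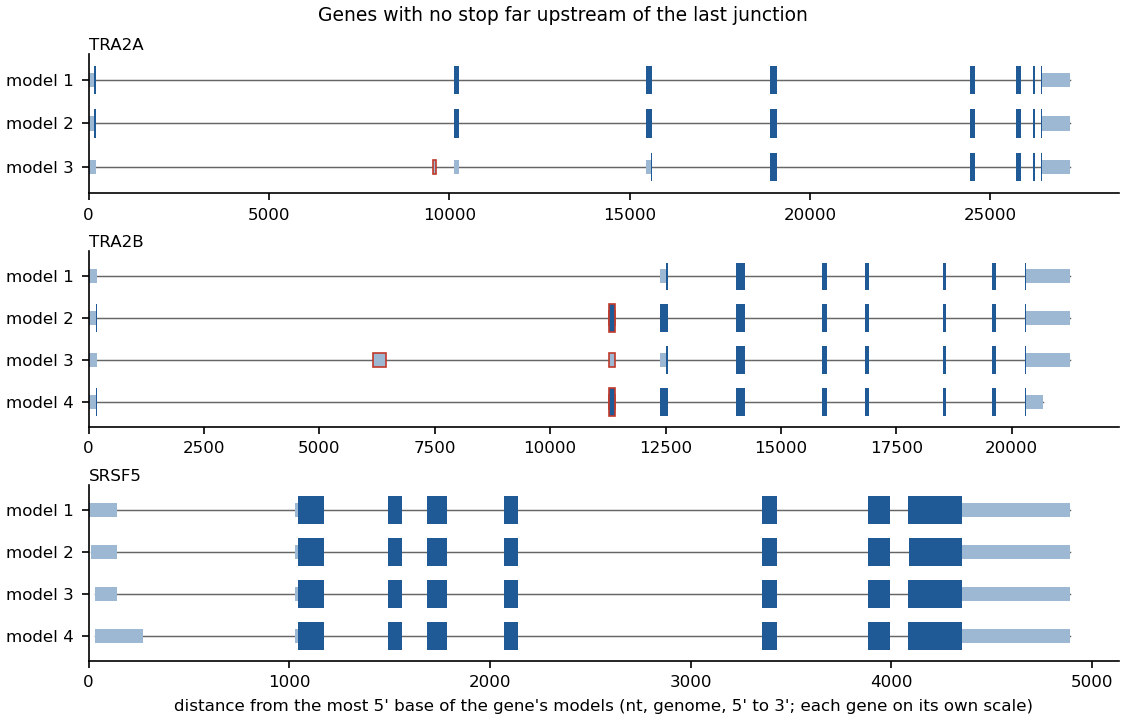
Models of TRA2A, TRA2B and SRSF5 drawn to scale (x axis, nt along the genome from the most 5' base of each gene's models; y axis, model number), with coding regions as tall dark boxes, untranslated regions as low light boxes, introns as lines and cassette exons outlined in red. In TRA2A model 3 and TRA2B models 1 and 3 the tall boxes begin only inside the exon of 166 or 163 nt, and the 4 SRSF5 models differ in the first exon.

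The TRA2 genes also shared a choice between 2 acceptors 3 nt apart, in the second-last exon. TRA2A model 2 used the downstream acceptor and lost 1 codon, with 282 codons against 283 in model 1, and TRA2B model 4 did the same, with 288 against 289 in model 2. The 2 genes had the same lengths for 3 of their exons, 134, 189 and 116 nt, and all 7 models ended their coding region 11 nt into the last exon. SRSF5 also had such a pair, at its last exon. Acceptors 3 nt apart were present in 3 of the 7 genes with at least 2 models (42.9%), against 5.99% of 4725 genes. The 3 genes had 4 (SRSF5), 3 (TRA2A) and 4 (TRA2B) models, and the shares are not matched for this number. In each of the 3 genes the downstream acceptor was found in 1 model only.

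SRSF5 (SRp40) on chromosome 14 varied mainly in its first exon. Its 4 models shared the start codon in exon 2, at 69768157, and the stop 268 nt into the last exon (265 nt with the downstream acceptor), with 273 codons in models 1, 3 and 4 and 272 in model 2. The first exon ended at 3 donor sites: that of models 1 and 2 lay 4 nt downstream of the site of model 3, and that of model 4 a further 125 nt downstream. The 5' UTRs measured 163, 153, 129 and 255 nt in models 1 to 4, and the 3' UTR was 538 nt in each. No intron lay behind the stop.

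In-frame changes that spared the stop completed the picture in SRSF7. Model 3 skipped an exon of 36 nt, from 38746144 to 38746179, and had 227 codons, 226 of them shared with the 239 of model 1. Model 5 used a donor 9 nt upstream of the usual one and had 236 codons, 235 of them shared. The stop of both, 55 nt into the last exon, was that of model 1. The last base of the models ranged over 1291 nt in SRSF7, with 3' UTRs of 240, 238 and 1529 nt in models 3, 5 and 1. It ranged over 571 nt in TRA2B and 645 nt in SRSF3, and in SRSF1, SRSF2 and SRSF5 it was the same in every model. Each of the 19972 models has a chain of introns that no other model of its gene has, so alternative ends of a given chain are not represented.

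The other genes of the pathway were counted in the same way. Of 6 further SR protein genes, SRSF4, SRSF6 and SRSF9 had models, 4 in all; none had a candidate or a cassette exon of at least 200 nt. The 2 SRSF9 models differed by a donor 129 nt away, with 179 and 222 codons. Of 32 genes for SR protein kinases, the import receptor and SR-related factors, 20 had a model, 14 at least 2 and 3 a candidate, and none had a cassette exon of at least 200 nt. In both lists together that is 0 of 15 genes with at least 2 models, beside 7.64% of all such genes. The candidates were 1 model of ARGLU1, with the last junction 2135 nt behind the stop, 1 of LUC7L (79 nt, 64 codons) and 2 of RSRP1 (666 and 1543 nt). In ARGLU1, which encodes an arginine- and glutamate-rich splicing factor, both models had 274 codons. The kinase genes CLK1, CLK2 and CLK3 had 4, 4 and 5 models with no candidate, and SRPK1 and SRPK2 had no model. These 3 of 20 and 0 of 3 genes stand beside the 5.01% of all coding genes. A gene without a model here is not shown to be silent.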

How the data were processed

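The libraries were polyadenylated-RNA Frac-seq libraries of H9 cells, with long reads from R2C2, per the labels' protocols. The authors deposited 1 set of transcript models, with PacBio as the source on each line, and the values used are the positions (nt) of its transcript, exon and coding-region lines. STAR 2.7.8a and Salmon 1.9.0 are named without a role in the submitters' processing notes. The sources used here do not say how models were built and filtered, how coding regions were called, or on which build. The file's 2 scaffold names are ones used in GRCh38, and 99.7% of 19289 models with a symbol in RefSeq's table (GRCh38.p14) overlapped the gene's span there, so the coordinates were read as GRCh38. Codons were counted over the whole deposited coding region.

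Introns were the gaps between exons. A cassette exon is an internal exon whose flanking splice sites are joined directly in another model of the gene, and a retained intron lies inside an exon of another model. Event detection (Python 3.11.15) was tested on simulated models with known events. These were cassette exons, retained introns, acceptors 3 nt apart and distances from stop to last junction. Alternative donors and moved starts were not simulated. The members, lists and thresholds were chosen with earlier results of these data known. All 8 genes are named in full, and other genes only as members of the lists of 6 and 32. No test was run: the libraries have no values here, and models of a gene are not replicates. Counts are set beside those over all genes. Alternatives changed the 50 nt and 200 nt thresholds, the form of skipping, the gap between positions, and left out coding regions near model ends.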

Additional observations from a re-analysis of the deposited data

How the results depend on the processing

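All 12 alternatives left the counts within 1.5 times the reported ones. The number of candidate models was 7 with a threshold of 55 nt and 8 with any stop upstream of the last junction, which adds SRSF2 model 3. Long cassette exons numbered 3 from 150 nt and 2 from 300 nt, which leaves out TRA2B and sits at the limit of 1.5 times. No other count changed, apart from 7 in place of 8 models when an intron had to lie over 50 nt behind the stop.

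No paired analysis was possible because the deposited models hold no value per library. Depth limits what can be said: a model not found is not an isoform shown to be absent, and for each of the 7 cassette exons inclusion or skipping rests on 1 model. Start and stop positions are those of the deposited coding regions, and whether the cells use them was not tested.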
